A study of Mus musculus with 25 samples.

Results

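The genes described here are the 5 clade B serpins *Serpinb9*, *Serpinb9b*, *Serpinb6b*, *Serpinb6a* and *Serpinb1a*, found by matching the identifiers of the deposited count table to their symbols. All 5 were in the table, which holds 46078 genes, and all 5 were among the 14123 genes that passed the filter on low counts. They were measured by bulk RNA-seq in group 1 innate lymphoid cells (G1-ILCs) of wild-type C57BL/6 mice, with no altered allele in any group. The groups differ in tissue, gate, age and the isolation of cells. Per the study's methods, small intestine and salivary gland were digested with enzymes, whereas liver was dissociated mechanically and marrow was flushed out. The labels name no treatment, and the study's methods give some mice an ARTC2.2 blocking nanobody before sacrifice without naming the experiments. G1-ILCs, the lineage of NK cells and ILC1s, were sorted as CD3-NK1.1+NKp46+ cells and split by the integrins CD49a and CD49b. From the adult liver (AL) came 4 libraries of CD49a+CD49b lo ILC1s without surface IL-7R (AL 7R- ILC1s), 3 of those with it (AL 7R+ ILC1s) and 2 of CD49a-CD49b+ NK cells (AL NK cells). From adult bone marrow (BM) came 3 libraries of CD49a+CD49b lo immature ILC1s (BM iILC1s) and 3 of CD49a-CD49b+ NK cells (BM NK cells). The remaining groups were 4 libraries of CD27+IL-7R+ ILC1s of the small intestinal lamina propria (LPL ILC1s), 2 of CD49a+CD49b+ cells of the salivary gland (SG G1-ILCs) and 4 of CD49a int CD49b int cells of the E18.5 fetal liver (FL G1-ILCs). Adult mice were 8 weeks old, and the labels give small pools of sorted cells without saying how many animals went into a library.

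Serpins are protease inhibitors that offer a protease an exposed reactive loop as bait. When the protease cuts the loop, the serpin changes shape and holds the enzyme in a covalent complex, so that inhibitor and enzyme are both spent. Clade B serpins lack a classical secretion signal and act in the cytosol and nucleus, where cytotoxic lymphocytes are exposed to granzymes that leak from their own granules. *Serpinb9* (SPI6) inhibits granzyme B, *Serpinb9b* granzyme M and *Serpinb6b* granzyme A, while *Serpinb6a* and *Serpinb1a* are known for holding granule proteases of myeloid cells such as cathepsin G and, for *Serpinb1a*, neutrophil elastase and proteinase 3.

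Library depth ranged from 2302643 to 7995906 counts (median 4603579), and FL libraries 2 and 3, which differed by little more than sampling noise (chi-square per degree of freedom 1.17, against 3.38 to 10.7 in 28 other pairs of replicates), were summed and counted as 1 sample (FL replicate 2), leaving 24 samples. *Ncr1* and *Tbx21*, which define G1-ILCs, were high in all 8 groups (group means of 507 to 1951 and 600 to 1466 CPM, normalised counts scaled to a common library size), *Itga1* (CD49a) was at 2.72 to 3.31 CPM in the NK groups and 101 to 675 elsewhere, and *Il7r* was at 541 to 1117 CPM in the 3 IL-7R+ groups and at most 22.1 in the others. Transcripts listed as markers of other cells moved with some groups. Their sums cannot tell such cells from expression by the sorted cells themselves, and the paper plots *Gata3* for its G1-ILC populations. The summed level of 9 granulocyte genes was 1487 CPM in BM iILC1 replicate 2, 370 in FL replicate 4 and 61.6 in FL replicate 1, against 0.18 to 7.85 in all other samples. A list of 5 macrophage genes summed to 617 and 789 CPM in SG G1-ILCs, 72.9 to 106 in BM iILC1s and 0.719 to 37 elsewhere. The 8 ILC2 and ILC3 markers summed to 791 to 962 CPM in LPL ILC1s and 115 to 272 elsewhere, led in LPL ILC1s by *Gata3* (438 CPM) and *Areg* (273 CPM). T cell markers summed to 437 to 612 CPM in BM iILC1s, 206 to 293 in AL 7R- ILC1s and LPL ILC1s and 83.4 to 163 in the other groups. Epithelial markers summed to 817 to 950 CPM in SG G1-ILCs and 2.48 to 118 elsewhere. Erythroid markers spanned 0.503 to 414 CPM in AL 7R- ILC1s, 9.04 to 201 in BM iILC1s and 26.4 to 199 in FL G1-ILCs. In the other groups they were at 0.206 to 33.2. Hepatocyte markers summed to 95.6 to 158 CPM in LPL ILC1s and 1.8 to 28.8 elsewhere. Endothelial and stromal markers summed to 169 to 226 CPM in LPL ILC1s and 47.2 to 143 elsewhere. The part of other cells in the serpin levels was not tested beyond the values given beside each result. In bulk samples fewer expressing cells and less RNA per cell cannot be told apart.

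The 5 genes lie within 1160 kb of chromosome 13 (GRCm38). *Serpinb1a* (ENSMUSG00000044734) is at chr13:32842092-32851185 on the minus strand, *Serpinb6b* (ENSMUSG00000042842) at chr13:32965209-32979067 on the plus strand, *Serpinb9* (ENSMUSG00000045827) at chr13:33003250-33017957 on the plus strand, *Serpinb9b* (ENSMUSG00000021403) at chr13:33027416-33041884 on the plus strand and *Serpinb6a* (ENSMUSG00000060147) at chr13:33917918-34002794 on the minus strand. *Serpinb9* and *Serpinb9b* are neighbours on the same strand. The reactive loop is where the members differ in the protease they catch, so its coding sequence is shown for each as 21 codons of 1 exon, read 5′ to 3′ on the coding strand of GRCm38 with the 4 codons of the loop's hinge in capitals. The stretches are at chr13:33015693-33015755 for *Serpinb9*, chr13:33039796-33039858 for *Serpinb9b*, chr13:32978201-32978263 for *Serpinb6b*, chr13:33918137-33918199 for *Serpinb6a* and chr13:32842914-32842976 for *Serpinb1a*.
Serpinb9: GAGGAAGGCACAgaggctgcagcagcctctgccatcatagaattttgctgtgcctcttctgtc
Serpinb9b: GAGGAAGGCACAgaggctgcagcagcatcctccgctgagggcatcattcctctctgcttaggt
Serpinb6b: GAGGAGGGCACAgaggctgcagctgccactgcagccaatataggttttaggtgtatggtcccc
Serpinb6a: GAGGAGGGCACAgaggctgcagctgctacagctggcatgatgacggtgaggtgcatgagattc
Serpinb1a: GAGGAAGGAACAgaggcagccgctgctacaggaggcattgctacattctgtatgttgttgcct
The hinge and the bases just after it were nearly the same in all 5, and the stretches parted further on, towards the site of cutting. *Serpinb9* and *Serpinb9b* were identical at 85.4% of aligned coding positions but at 70.8% within the loop stretch, and *Serpinb6a* and *Serpinb6b* at 81.2% and 71.4%. The other 8 pairs were identical at 56.1% to 67.1% of coding positions and 59.4% to 68.8% of the loop stretch, and in 7 of these 8 the loop was the more alike. The longest run of bases that a member shared with another clade B gene was 62 for *Serpinb9* with *Serpinb9b*, 73 for *Serpinb6b* and 60 for *Serpinb6a* with *Serpinb6c*, and 81 for *Serpinb1a* with *Serpinb1b*. The study's methods give paired reads longer than each of these runs. Only reads shortened by trimming could lie wholly within a run, and such reads cannot be placed with certainty.

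*Serpinb9*, the granzyme B inhibitor, was the most abundant member by CPM in every group, and LPL ILC1s held by far the most. Its levels there were 4623, 4672, 4778 and 5243 CPM. In AL NK cells they were 964 and 1067 CPM, in SG G1-ILCs 889 and 1110, and in BM NK cells 728, 719 and 779. FL G1-ILCs gave 626, 648 and 613 CPM, and BM iILC1s 460, 498 and 461. The adult liver ILC1s were lowest, the 7R+ samples giving 298, 367 and 311 CPM and the 7R- samples 274, 217, 231 and 223. The LPL samples overlapped no other group, and the 4 AL 7R- samples lay below every sample of the other groups. The group means spanned 20.4-fold, from 236 ± 25.6 CPM (SD, n = 4) in AL 7R- ILC1s to 4829 ± 284 (SD, n = 4) in LPL ILC1s. The groups differed by edgeR's quasi-likelihood test over all 8 (F = 639, adjusted p = 3.94e-24), as did 27 of the 28 pairs of groups, in which 2.58% to 58.9% of all genes tested were called. Neighbours in the order LPL ILC1s, AL NK cells, SG G1-ILCs, BM NK cells, FL G1-ILCs, BM iILC1s, AL 7R+ ILC1s, AL 7R- ILC1s all differed except AL NK cells and SG G1-ILCs, where the log2 difference of SG from AL NK cells was -0.02 (95% interval -0.24 to 0.20, adjusted p = 0.918).

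*Serpinb6b*, the granzyme A inhibitor, had LPL ILC1s and AL NK cells first and the adult liver ILC1s last, as *Serpinb9* did, with FL G1-ILCs placed higher, at lower counts and over a narrower range. Its levels in LPL ILC1s were 1469, 1518, 1678 and 1886 CPM. In AL NK cells they were 351 and 394 CPM, in FL G1-ILCs 320, 386 and 379, in SG G1-ILCs 312 and 358, and in BM NK cells 320, 364 and 302. BM iILC1s gave 251, 220 and 238 CPM, AL 7R+ ILC1s 226, 190 and 224, and AL 7R- ILC1s 182, 181, 199 and 182. Again LPL ILC1s stood clear of all other groups and AL 7R- ILC1s were lowest on average. The means ran from 186 ± 8.94 CPM (SD, n = 4) to 1638 ± 188 (SD, n = 4), an 8.81-fold span (F = 296, adjusted p = 1.41e-20), and 20 of 28 pairs differed. Between LPL ILC1s and the rest, and between BM NK cells and BM iILC1s, neighbours in the order differed, whereas AL NK cells, FL G1-ILCs, SG G1-ILCs and BM NK cells did not (neighbours' adjusted p from 0.474 to 0.884), nor did BM iILC1s and AL 7R+ ILC1s (0.53) or AL 7R+ and AL 7R- ILC1s (0.319). Over the 8 group means of log2 CPM, *Serpinb9* and *Serpinb6b* had a Pearson r of 0.97, and of 0.94 without LPL ILC1s, as a description over groups that share their libraries.

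**Figure D1:**
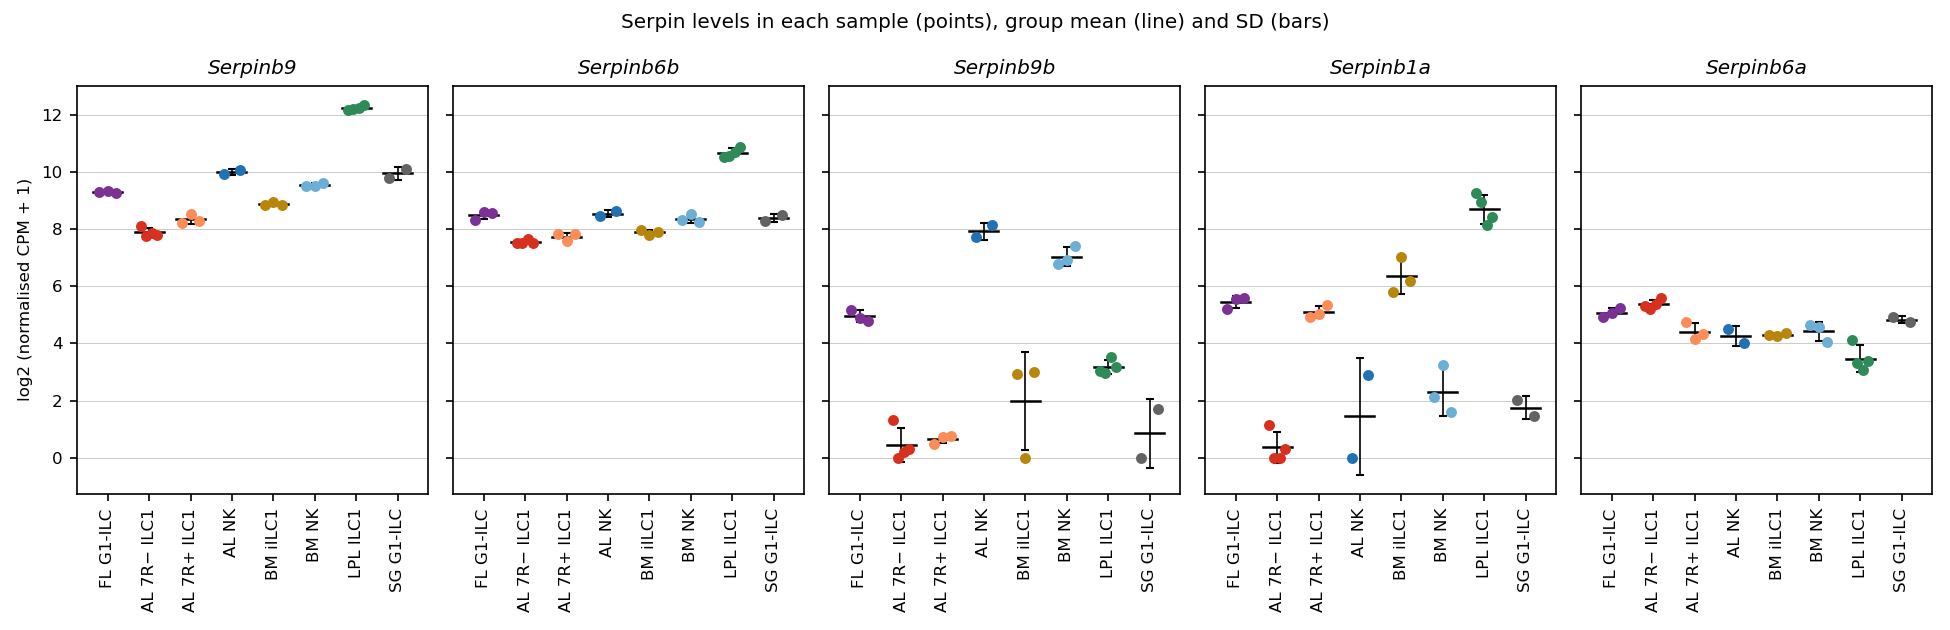
Level of each serpin in every sample (points, log2 of CPM + 1), by group. The line is the mean of these log2 values and the bars are their SD. LPL ILC1s are highest for *Serpinb9*, *Serpinb6b* and *Serpinb1a*, the NK groups for *Serpinb9b*, and the group means of *Serpinb6a* in CPM lie between 10.6 and 40.4.

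*Serpinb9b*, the granzyme M inhibitor, was an NK transcript in these data. AL NK cells held 209 and 279 CPM, and their BM counterparts 110, 120 and 169. FL G1-ILCs came next with 35.4, 28.5 and 26.7 CPM. LPL ILC1s gave 7.29, 6.88, 10.4 and 8.03 CPM, and BM iILC1s 6.68, 0 and 6.99. The adult liver ILC1s were close to none, the 7R+ samples at 0.413, 0.662 and 0.691 CPM (11 counts in all) and the 7R- samples at 1.49, 0, 0.145 and 0.251 (8 counts in all). SG G1-ILCs held 0 and 2.27 CPM. A count of 0 allows up to 3 counts, or 0.506 CPM in the AL 7R- sample, 0.589 in BM iILC1 replicate 2 and 0.846 in the SG sample, for counting error only. NK and FL samples thus overlapped no other group, while the LPL, BM iILC1, SG and liver ILC1 samples formed a low range. The groups differed (F = 85.5, adjusted p = 1.07e-14; 22 of 28 pairs), with means of 244 ± 49 CPM (SD, n = 2) for AL NK cells against 133 ± 31.7 (SD, n = 3) for those of the BM, a log2 difference of BM from AL of -0.88 (SE 0.41) that did not pass (adjusted p = 0.324). BM NK cells exceeded FL G1-ILCs by 2.13 on the log2 scale (adjusted p = 1.41e-04) and FL G1-ILCs exceeded LPL ILC1s by 1.88 (adjusted p = 4.49e-04). None of the lower neighbours differed.

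*Serpinb1a*, the elastase inhibitor, was high in LPL ILC1s, intermediate in the 2 other IL-7R+ groups and FL G1-ILCs, and at 8.5 CPM or less in NK cells, SG G1-ILCs and AL 7R- ILC1s. LPL ILC1s held 618, 495, 284 and 339 CPM. BM iILC1s held 54.8, 130 and 72.5 CPM, FL G1-ILCs 35.7, 45.7 and 47.6, and AL 7R+ ILC1s 29.3, 31.6 and 39.3. BM NK cells gave 3.33, 8.5 and 2.02 CPM, AL NK cells 0 and 6.47, SG G1-ILCs 3.1 and 1.77, and AL 7R- ILC1s 1.24, 0, 0 and 0.251 (6 counts in all). The 4 higher groups did not overlap the 4 lower ones, and within the liver AL 7R+ and AL 7R- ILC1s were apart by a fitted log2 difference of -6.74 (SE 0.71) for AL 7R- cells. Means ran from 0.373 CPM (n = 4) in AL 7R- ILC1s to 434 ± 152 (SD, n = 4) in LPL ILC1s, with F = 94.4, adjusted p = 3.59e-15 and 22 of 28 pairs called. BM iILC1s exceeded FL G1-ILCs by 1.00 on the log2 scale (adjusted p = 0.0369), FL G1-ILCs did not differ from AL 7R+ ILC1s (adjusted p = 0.497), and AL 7R+ ILC1s exceeded BM NK cells by 2.84 (adjusted p = 7.67e-05). The highest BM iILC1 value, 130 CPM, came from replicate 2, the sample with the most granulocyte transcripts, in which *Elane* reached 217 CPM and *Serpinb9b* had no count.

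*Serpinb6a*, known for inhibiting cathepsin G, was low everywhere. It was highest on average in AL 7R- ILC1s, where *Serpinb9* and *Serpinb6b* were lowest, and lowest in LPL ILC1s, where they were highest. AL 7R- ILC1s had 38.3, 36.2, 40.5 and 46.7 CPM and FL G1-ILCs 29.4, 32.4 and 36.5. SG G1-ILCs had 29.3 and 25.8 CPM, BM NK cells 23.8, 23 and 15.6, AL 7R+ ILC1s 26.2, 16.8 and 19, BM iILC1s 18.8, 18.1 and 19.6, and AL NK cells 21.6 and 15.1. LPL ILC1s were at the bottom with 16.6, 8.89, 7.37 and 9.42 CPM. The spread among the means was 3.82-fold (F = 12.6, adjusted p = 2.33e-06; 15 of 28 pairs), and of the neighbours in the order AL NK and LPL ILC1s alone differed (log2 0.81, adjusted p = 0.0186). Its exons share 762 of 5409 bases with *Nqo2* (6.65 to 49.6 CPM), 584 with *1110046J04Rik* and 241 with *Ripk1* (39.2 to 78.1 CPM), all on the opposite strand, so that without strand information reads there cannot be told apart.

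Each serpin thus differed among the 8 groups (5 of 5, where 77.7% of all genes tested did). Over 12 planned pairs of groups, 22 of the 60 member comparisons were higher, 17 lower and 21 not called, in the direction of the first-named group. In the same 12 pairs, 2.58% (BM against AL NK cells) to 51% (LPL against AL 7R+ ILC1s) of all genes tested were called.

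In the adult liver the question was how ILC1s differ from NK cells, and the granzyme-directed serpins were lower in both kinds of ILC1. In AL 7R- ILC1s against AL NK cells, 3 members were lower and 1 higher (20.4% of all genes tested were called, 9.94% higher and 10.5% lower). *Serpinb9* was 4.3-fold lower (log2 -2.10, SE 0.09, adjusted p = 1.82e-15) and *Serpinb6b* 2-fold lower (SE of the log2 difference 0.11, adjusted p = 4.93e-08). The fitted log2 difference of *Serpinb9b* was -9.20 (SE 0.60, adjusted p = 4.59e-12), a size that rests on the 8 counts in AL 7R- ILC1s and was -10.72 without replicate 1. *Serpinb6a* was 2.19-fold higher (adjusted p = 0.00345), though not without AL NK replicate 2 (adjusted p = 0.11). *Serpinb1a* gave -3.20 (SE 1.24, adjusted p = 0.0705). In AL 7R+ ILC1s against AL NK cells, 3 members were again lower and 1 higher (15.6% of all genes called, 7.96% higher and 7.61% lower). *Serpinb9* was 3.12-fold lower (adjusted p = 1.89e-12), *Serpinb6b* 1.74-fold lower (adjusted p = 6.94e-06) and *Serpinb9b* lower by a log2 of -8.59 (SE 0.64, adjusted p = 6.63e-11), whereas *Serpinb1a* was 11.6-fold higher (adjusted p = 1.99e-04). The size of the *Serpinb1a* difference rests on AL NK samples at 0 and 6.47 CPM, and without AL NK replicate 1, the one at 0, it was 2.37 on the log2 scale in place of 3.54 (adjusted p = 0.0154).

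The liver ILC1 subsets differed from each other in 3 members, 2 lower and 1 higher in AL 7R- ILC1s, where 5.28% of all genes tested were called, 2.22% higher and 3.06% lower. *Serpinb1a* was lower by a log2 of -6.74 (adjusted p = 2.62e-07; -8.64 without AL 7R- replicate 1), *Serpinb9* 1.38-fold lower (log2 -0.46, SE 0.09, adjusted p = 8.57e-04) and *Serpinb6a* higher by 0.97 on the log2 scale (SE 0.24, adjusted p = 0.0107). The *Serpinb6a* call was lost without AL 7R+ replicate 2 (adjusted p = 0.0788) or 3 (0.0714).

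Fetal against adult liver cells showed more serpin transcript before birth than in AL 7R- ILC1s. Of the serpins 4 were higher before birth and none lower (42.6% of all genes tested were called, 22.4% higher and 20.1% lower). *Serpinb9* was 2.66-fold higher (log2 1.41, SE 0.09, adjusted p = 1.10e-12) and *Serpinb6b* 1.95-fold higher (adjusted p = 7.62e-09). *Serpinb9b* was higher by 6.19 (SE 0.63, adjusted p = 9.35e-09) and *Serpinb1a* by 7.09 (SE 0.69, adjusted p = 4.67e-09) on the log2 scale, both against 8 counts or fewer in the adult cells (7.66 and 8.94 without AL 7R- replicate 1). Against AL NK cells, 2 members were higher and 2 lower in FL G1-ILCs (36.4% of all genes called, 19.8% higher and 16.6% lower). *Serpinb9* was 1.61-fold lower (adjusted p = 4.92e-06) and *Serpinb9b* 8.06-fold lower (adjusted p = 3.92e-06), while *Serpinb1a* was 14.9-fold higher (adjusted p = 2.41e-05) and *Serpinb6a* 1.77-fold higher (adjusted p = 0.0245). Without AL NK replicate 1 the *Serpinb1a* difference was 2.73 on the log2 scale in place of 3.90 (adjusted p = 0.00214). Without the 3 samples rich in granulocyte genes the *Serpinb6a* call was lost at the same size (log2 0.83, adjusted p = 0.146), as it was without AL NK replicate 2 (0.246) or FL replicate 4 (0.0712). Leaving out the 3 samples keeps FL replicate 2 alone in its group, which is then assumed to vary like the other groups.

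**Figure D2:**
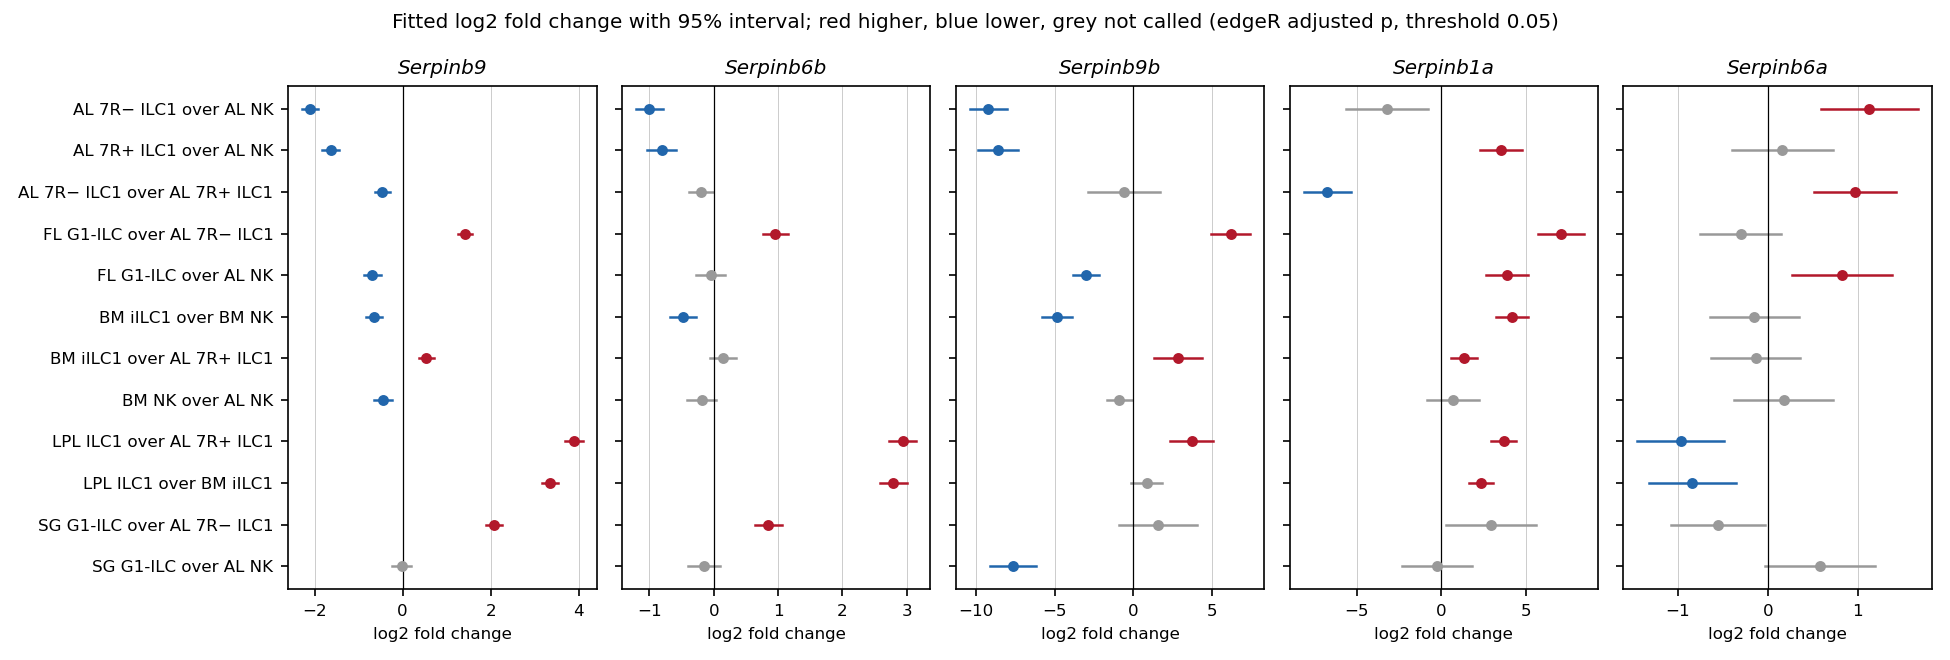
Fitted log2 difference of each serpin in the 12 pairs of groups, with its 95% interval. Red points were higher and blue points lower at the adjusted p threshold of 0.05, and grey points were not called. The longest shift for *Serpinb9* is the 3.89 of LPL ILC1s over AL 7R+ ILC1s.

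In bone marrow, iILC1s against NK cells had 3 members lower and 1 higher (12.1% of all genes tested were called, 6.55% higher and 5.55% lower). *Serpinb9* was 1.57-fold lower (log2 -0.65, SE 0.09, adjusted p = 9.66e-06), *Serpinb6b* 1.39-fold lower (adjusted p = 0.0021), *Serpinb9b* 29-fold lower (adjusted p = 3.06e-08) and *Serpinb1a* 18.2-fold higher (adjusted p = 3.15e-07). All 4 calls held without BM iILC1 replicate 2, where *Serpinb1a* gave a log2 of 3.76, and without BM NK replicate 2 it gave 4.96. BM iILC1s against AL 7R+ ILC1s had 3 members higher (8.06% of all genes called, 4.23% higher and 3.84% lower). *Serpinb9* was 1.45-fold higher (adjusted p = 2.21e-04), *Serpinb9b* 7.24-fold (adjusted p = 0.0197) and *Serpinb1a* 2.55-fold (adjusted p = 0.0248). Without BM iILC1 replicate 2 the *Serpinb1a* difference fell to 0.92 on the log2 scale and lost its call (adjusted p = 0.222), as it did with DESeq2 (0.414) and without AL 7R+ replicate 1 (0.101) or 2 (0.0865). That of *Serpinb9b*, which rests on few counts, lost it without BM iILC1 replicate 1 (0.113) or 3 (0.115) or without any 1 of the AL 7R+ replicates (0.054 to 0.0758). BM NK cells against AL NK cells had 1 member lower (2.58% of all genes called, 1.01% higher and 1.57% lower), *Serpinb9* by 1.37-fold (adjusted p = 0.0115), and this call was lost without AL NK replicate 2 (adjusted p = 0.219) or BM NK replicate 2 (0.0624).

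The NK and ILC1 populations were also compared between the organs, by testing whether the ILC1 over NK difference in bone marrow (BM iILC1s over BM NK cells) was the same as in liver (AL 7R+ ILC1s over AL NK cells). For *Serpinb9* it was smaller in bone marrow, by 0.99 on the log2 scale (SE 0.14, adjusted p = 4.03e-05), since *Serpinb9* was -0.65 in marrow and -1.64 in liver. For *Serpinb9b* the 2 differences, -4.86 and -8.59, were apart by 3.73 (SE 0.88, adjusted p = 0.0145), a call lost with DESeq2 (adjusted p = 0.113) and without BM iILC1 replicate 1 (0.0653) or 3 (0.0725) or AL NK replicate 2 (0.06). These 2 members were called, both in the same direction, of the 5 (3.09% of all genes were, 1.74% higher and 1.35% lower). Of 6 granzymes tested, 3 went the other way in the same test, with -1.69 for *Gzma* (adjusted p = 2.65e-04), -1.99 for *Gzmb* (adjusted p = 4.43e-05) and -4.69 for *Gzmc* (adjusted p = 9.61e-04). The other 3 were not called, among them *Gzmm* at 0.98 (SE 0.80, adjusted p = 0.707) and *Gzmk* at -1.89 (SE 1.45, adjusted p = 0.683).

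LPL ILC1s carried more transcript of 4 serpins and less *Serpinb6a* than the liver cells that share IL-7R. Against AL 7R+ ILC1s, 4 members were higher and 1 lower (51% of all genes tested were called, 24.8% higher and 26.2% lower). *Serpinb9* was 14.8-fold higher (log2 3.89, SE 0.10, adjusted p = 4.57e-21), *Serpinb6b* 7.66-fold (adjusted p = 6.07e-18), *Serpinb9b* 13-fold (adjusted p = 9.73e-05) and *Serpinb1a* 12.9-fold (adjusted p = 1.15e-08), and *Serpinb6a* was lower by a log2 of -0.97 (SE 0.25, adjusted p = 0.0019). Against BM iILC1s, 3 members were higher and 1 lower (50.7% of all genes called, 23.8% higher and 26.9% lower), namely *Serpinb9* at 10.2-fold (adjusted p = 5.01e-20), *Serpinb6b* at 6.93-fold (adjusted p = 1.26e-17), *Serpinb1a* at 5.05-fold (adjusted p = 4.99e-06) and *Serpinb6a* at 1.79-fold lower (adjusted p = 0.00653), a call lost when these groups were fitted alone (adjusted p = 0.0631). *Serpinb9b* gave 0.85 (SE 0.51, adjusted p = 0.174). About as many genes differed in these comparisons as did not, and the ILC2 and ILC3 markers summed higher in all LPL samples than in any other. Enzyme digestion was used for the intestine and not for liver or marrow, so tissue and digestion cannot be told apart here.

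SG G1-ILCs were compared with ILC1s and NK cells of the adult liver. Against AL 7R- ILC1s, 2 members were higher (32.4% of all genes tested were called, 17.8% higher and 14.6% lower), *Serpinb9* by 4.24-fold (log2 2.08, SE 0.09, adjusted p = 9.29e-16) and *Serpinb6b* by 1.8-fold (adjusted p = 5.77e-07). Against AL NK cells, 1 was lower (27% of all genes called, 15.1% higher and 11.9% lower), *Serpinb9b*, with a fitted log2 of -7.65 (SE 0.74, adjusted p = 5.98e-09) against SG samples at 0 and 2.27 CPM, and of -6.73 without the one at 0. These libraries also carried 617 and 789 CPM of macrophage genes, and their epithelial markers summed to 817 to 950 CPM. The salivary gland was digested with enzymes and the liver was not, so tissue and digestion cannot be told apart here either.

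On a scale per length (RPKM, the CPM of a gene per kilobase of its exons), the 5 serpins summed to 2299 ± 125 (SD, n = 4) in LPL ILC1s and 533 ± 50.2 (SD, n = 2) in AL NK cells. SG G1-ILCs followed with 441, BM NK cells with 403, FL G1-ILCs with 374, BM iILC1s with 282, AL 7R+ ILC1s with 206 and AL 7R- ILC1s with 158 ± 8.24 (SD, n = 4). *Serpinb9* and *Serpinb6b* made up most of the sum in each group, with 42.8% to 64.8% and 30.9% to 52.2%, and *Serpinb6b* was the larger share in AL 7R- and AL 7R+ ILC1s. The remaining members marked particular groups. *Serpinb9b* made up 13.6% of the sum for AL NK cells and 9.81% for BM NK cells. *Serpinb1a* made up 13% for BM iILC1s, 8.26% for LPL ILC1s, 7.02% for AL 7R+ ILC1s and 4.99% for FL G1-ILCs. *Serpinb6a* reached its largest share, 4.76%, in AL 7R- ILC1s, and its level per kilobase would be higher by the length of its longest transcript (15 in place of 6.06 in FL G1-ILCs).

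**Figure D3:**
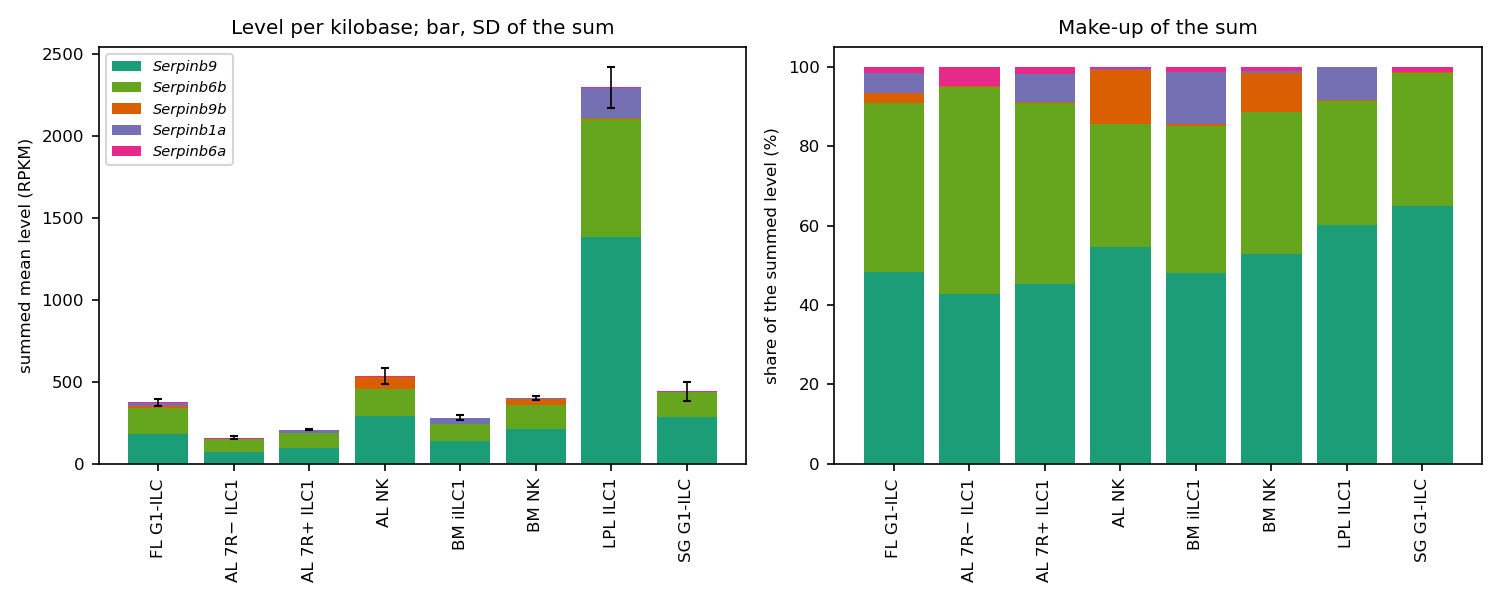
Mean level per kilobase of exon (RPKM) of the 5 serpins stacked by group. LPL ILC1s reach 2299 and AL 7R- ILC1s 158, *Serpinb9* and *Serpinb6b* fill most of each bar, and *Serpinb9b* is visible in the NK groups.

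*Gzma* and *Gzmb* followed other orders than their inhibitors *Serpinb6b* and *Serpinb9*, whereas *Gzmm* was highest in the same 2 groups as *Serpinb9b*. *Gzma* was highest in FL G1-ILCs (16708 ± 55.6 CPM, SD, n = 3), then AL 7R- ILC1s (8628 ± 852, n = 4), AL NK cells (7032 ± 67.1, n = 2) and BM NK cells (3525 ± 291, n = 3), and was at 1999 ± 430 (n = 4) in LPL ILC1s, 1248 in AL 7R+ ILC1s, 1207 in SG G1-ILCs and 194 in BM iILC1s. *Gzmb* was also highest in FL G1-ILCs (6533 ± 27.7 CPM, n = 3) and AL 7R- ILC1s (4868 ± 765, n = 4), followed by LPL ILC1s (3892 ± 1135, n = 4) and SG G1-ILCs (2576 ± 267, n = 2), and was at 1213 in AL NK cells, 1006 in AL 7R+ ILC1s, 330 in BM NK cells and 69 in BM iILC1s. *Gzmc* led in SG G1-ILCs (815 CPM) and LPL ILC1s (492), against 239 and 126 for the AL 7R- and 7R+ cells and at most 64.1 elsewhere. *Gzmm*, the protease that *Serpinb9b* is known to hold, was low, at 17.1 ± 1.52 CPM (n = 2) among AL NK cells and 15.3 ± 4.75 (n = 3) among their BM counterparts, the groups where *Serpinb9b* was highest, and 0.505 to 4.49 in the other groups. *Gzmk* was also highest in the NK groups (28.1 CPM in BM, 9.39 in AL). The filter was passed by 6 of the 10 granzyme genes. Over the 8 group means of log2 CPM, *Serpinb9* and *Gzmb* had an r of 0.20, which was -0.07 without LPL ILC1s. *Serpinb6b* and *Gzma* had 0.05, and 0.32 without LPL ILC1s. *Serpinb9b* and *Gzmm* had 0.70, and 0.72 without LPL ILC1s, while *Serpinb9b* and *Gzmk* had 0.77 and 0.78. These values are descriptions over 8 points, or 7 without LPL ILC1s.

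The most direct view of this is the ratio of a granzyme to its known inhibitor within a sample, both per kilobase of exon. AL 7R- ILC1s carried 47.4 to 52.5 *Gzmb* transcripts per *Serpinb9* transcript (50 ± 2.88, SD, n = 4), and FL G1-ILCs 24.5 to 26.1 (25.3 ± 0.808, n = 3). AL 7R+ ILC1s had 7.5 ± 0.585 (n = 3), SG G1-ILCs 6.4, AL NK cells 2.89, LPL ILC1s 1.42 to 2.76 (n = 4), BM NK cells 1.08 and BM iILC1s 0.356 ± 0.061 (n = 3). AL 7R- ILC1s overlapped no other group, and BM iILC1s were the only group with fewer *Gzmb* than *Serpinb9* transcripts in every sample. *Gzma* per *Serpinb6b* came to 105 ± 10.8 (n = 3) for FL G1-ILCs and 104 ± 10.7 (n = 4) for AL 7R- ILC1s, whose ranges overlapped. AL NK cells had 42.6, BM NK cells 24.4, AL 7R+ ILC1s 13.2, SG G1-ILCs 8.22, LPL ILC1s 2.74 ± 0.489 (n = 4) and BM iILC1s 1.84. Between AL 7R- ILC1s and LPL ILC1s, the only pair of groups with 4 samples each, *Gzmb* per *Serpinb9* was 26.2-fold and *Gzma* per *Serpinb6b* 38.5-fold higher in AL 7R- ILC1s. A 2-sided exact permutation test on the log2 ratios gave p = 0.0286 for each, the smallest value that 4 against 4 samples allow, and 0.0286 adjusted over the 2 tests. In liver, AL 7R- ILC1s against AL NK cells had *Gzmb* higher by 2.01 (adjusted p = 2.13e-08) on the log2 scale with *Serpinb9* lower by a log2 of -2.10, and *Gzma* at 0.30 (SE 0.19, adjusted p = 0.311) with *Serpinb6b* 2-fold lower.

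**Figure D4:**
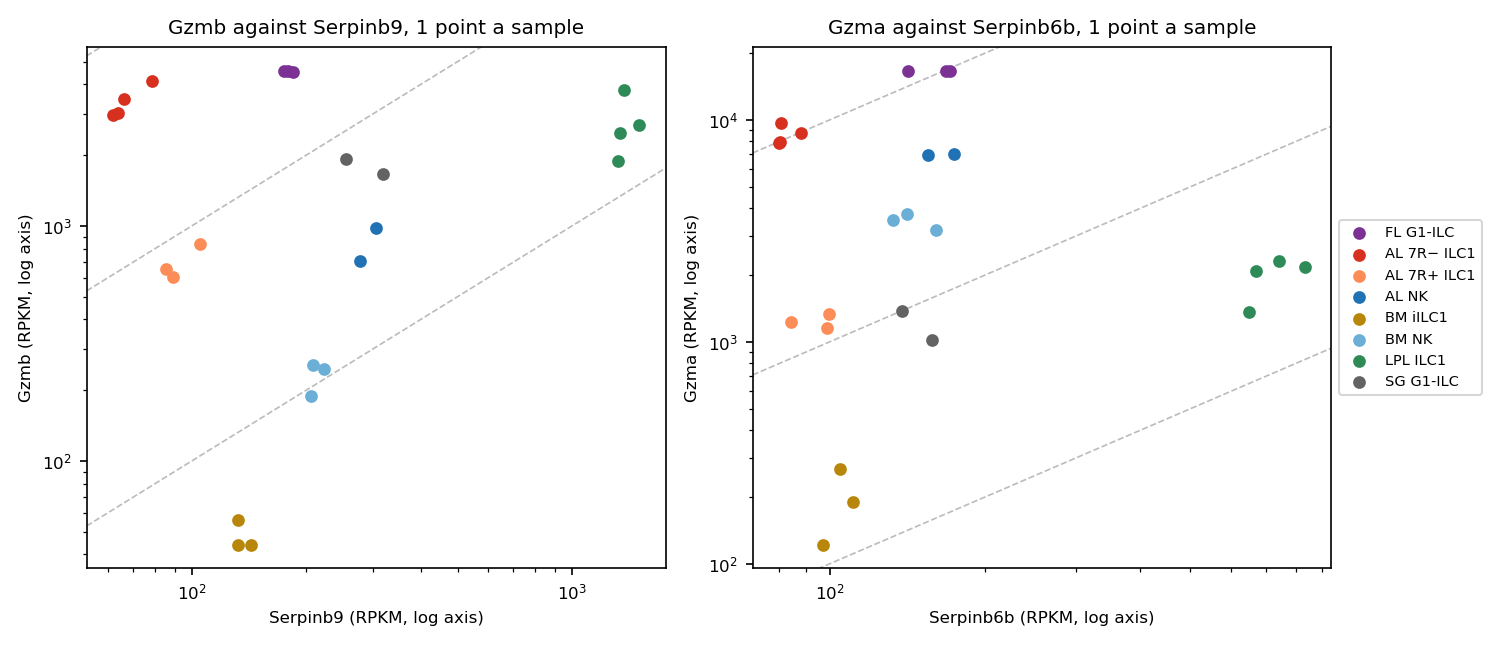
Granzyme against its known inhibitor in each sample (RPKM, both axes log scale), *Gzmb* against *Serpinb9* and *Gzma* against *Serpinb6b*. Dashed lines mark ratios of 1, 10 and 100, AL 7R- ILC1s and FL G1-ILCs lie at the highest ratios, and LPL ILC1s lie far to the right between ratios of 1 and 10.

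The members held nearly all clade B serpin transcript in these cells. Of the 28 clade B serpin genes in the table, 16 on chromosome 13 and 12 on chromosome 1, the 5 members took 99.5% of the counts (197948 against 964). Of the other 23, 22 had under 100 counts over all libraries. *Serpinb1b*, the nearest relative of *Serpinb1a*, was the exception with 459 counts, and followed the NK groups and LPL ILC1s, with 12.5 CPM in AL NK cells, 9.38 in LPL ILC1s, 5.95 in BM NK cells and 0.44 to 1.98 elsewhere.

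Genes that load and release granules were examined beside the serpins. In AL 7R- ILC1s against AL NK cells, 8 of 17 were lower and 3 higher (10.5% and 9.94% of all genes tested), among them *Prf1* (perforin, log2 -2.08, adjusted p = 4.63e-13), *Lamp1*, which shields granule membranes (-1.79), and *Stx11*, which serves granule fusion (-1.44). *Prf1*, the pore former, was 1863 ± 122 CPM (n = 2) in AL NK cells, 838 ± 110 (n = 4) in LPL ILC1s and 440 ± 23.8 (n = 4) in AL 7R- ILC1s, and the lowest mean was 175 in BM iILC1s. In LPL ILC1s against AL 7R+ ILC1s 11 of the 17 were higher and 4 lower (24.8% and 26.2% of all genes), with *Stx11* at 3.53, *Srgn*, the granule proteoglycan, at 1.85 and *Lamp1* at 1.52 on the log2 scale, and *Unc13d*, which primes granules for fusion, at -1.44. In BM iILC1s against BM NK cells 2 were higher and 4 lower (6.55% and 5.55% of all genes), including *Prf1* (-2.01). The median log2 difference of the list was -0.21, 0.89 and -0.12 in these comparisons, beside 0.01, -0.02 and 0.01 over all genes tested.

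Of other proteases that clade B serpins hold, 7 of 11 passed the filter. *Cma1*, a mast cell chymase, stood at 240 CPM for AL NK cells, 49.8 for their BM counterparts and at most 0.59 in the other groups, the groups where *Serpinb9b* was highest, while of the other 6 genes of the mast cell and basophil list 5 were at 0 in AL NK cells and *Cpa3* was at 3.25 and 4.32 CPM (36 counts), a level within the range of LPL ILC1s (2.62 to 5.82). *Elane*, *Ctsg* and *Prtn3*, the proteases *Serpinb1a* is known for, were near 0 in all samples except BM iILC1 replicate 2, at 217, 37.9 and 54.8 CPM. In LPL ILC1s, where *Serpinb1a* was highest, the 9 granulocyte genes summed to 1.72 to 4.43 CPM. Of inhibitors of other families, 4 of 9 tested were higher and none lower in AL 7R- ILC1s against AL NK cells (9.94% and 10.5% of all genes), led by *Serpina3f* (log2 difference 2.48) and *Spint2* (2.02), with *Serpina3g* (adjusted p = 6.17e-10) next, *Serpina3f* and *Serpina3g* being clade A serpins expressed by lymphocytes.

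The promoters of *Serpinb9* and *Serpinb9b* are shown because these neighbours, alike over most of their coding sequence, had different orders of groups. They are the 250 bases before each RefSeq start (GRCm38.p6, plus strand), at chr13:33004291-33004540 and chr13:33027164-33027413, with shared runs of at least 6 bases in capitals. The *Serpinb9* window lies inside the gene span given above, which starts at 33003250, and the bases before that start were not examined. The *Serpinb9b* window ends before its gene span, which starts at 33027416.
Serpinb9 promoter: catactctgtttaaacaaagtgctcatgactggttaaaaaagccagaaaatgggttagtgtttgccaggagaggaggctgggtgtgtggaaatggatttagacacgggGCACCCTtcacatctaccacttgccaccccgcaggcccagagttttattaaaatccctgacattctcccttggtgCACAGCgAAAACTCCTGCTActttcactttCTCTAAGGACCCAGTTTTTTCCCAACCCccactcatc
Serpinb9b promoter: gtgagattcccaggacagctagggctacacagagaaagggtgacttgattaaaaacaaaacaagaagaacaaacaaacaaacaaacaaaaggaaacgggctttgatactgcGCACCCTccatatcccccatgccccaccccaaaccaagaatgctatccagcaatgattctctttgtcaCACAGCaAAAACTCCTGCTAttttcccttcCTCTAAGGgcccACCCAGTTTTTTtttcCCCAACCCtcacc
An alignment of 169 columns, from -163 to -6 of *Serpinb9* and -160 to -2 of *Serpinb9b*, was identical at 70.4%, and the capitals cluster towards the start. RefSeq promoters were matched for 4 of the 5 members. In windows of the 250 bases before the start and on both strands, the T-box core TCACAC was in 12.1% of 32536 promoters and, among the members, in *Serpinb9b*. The Ets letters CCGGAAG (6.95% of promoters) and the Stat letters TTCNNNGAA (7.04%) were in *Serpinb6a*. The Runx letters TGTGGT (14%) and an NF-kB consensus (0.141%) were in none of the 4. Such matches describe the letters of these windows and no binding.

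The genes whose group means followed each member most closely were listed by Pearson r over the 8 group means of log2 CPM, among 1859 or 1860 genes of sufficient level and range. For *Serpinb9* they included *Prr7* (0.972), *Ppp2ca* (0.968), *Serpinb6b* (0.967) and *Osgin2* (0.966), and for *Serpinb6b* *Sub1* (0.983), *Uap1* (0.980), *Nfkbib* (0.979), *Osgin2* (0.970) and *Serpinb9* (0.967). Each of these 2 serpins was thus among the nearest to the other. For *Serpinb9b* they were *Borcs7* (0.946), *Gm8203* (0.924), *H2afz* (0.919), *Itga4* (0.918) and *Rap1gap2* (0.878). For *Serpinb1a* they were *Nbn* (0.933), *Itgb3* (0.907), *Ikzf2* (0.903), *Ero1l* (0.898) and *Gm29112* (0.881), and for *Serpinb6a* *Efnb1* (0.948), *Rnf43* (0.940), *Cdc14a* (0.920), *Sh3bp1* (0.910) and *S100a6* (0.905).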

How the data were processed

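The authors sorted cells by flow cytometry, made cDNA and libraries with a SMART-seq HT Plus kit and sequenced paired ends on a HiSeq X. Per the labels and the study's methods, reads were trimmed with fastp 0.23.0, aligned to mm10 with HISAT2 2.1.0 and assigned to genes by featureCounts (Subread 1.6.5). What the authors deposited are raw whole-number counts per Ensembl gene. The annotation release and the strand and multimapping settings are not given in the sources used here. Identifiers were matched to GENCODE vM21, and 935 without a match (0.104% of counts) kept only their identifiers. FL libraries 2 and 3 were summed, although the paper counts each FL library as a biological replicate. Counts of 24 samples were fitted over 8 groups with edgeR 4.0.16 (R 4.3.3; TMM, filterByExpr with a minimum count of 10, quasi-likelihood F test) and p-values were adjusted by Benjamini-Hochberg over 14123 genes, with a threshold of 0.05. "Called", "higher" and "lower" mean past that threshold. CPM and RPKM use TMM-normalised library sizes, and RPKM the exon union of a gene. Log2 CPM for correlations had a prior count of 2. SE is the log2 difference over the root of F. Ratios were tested with SciPy 1.17.1. The fit was tested on simulated data.

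All 5 members were tested in each comparison. Members that were called are given for each comparison, and members that were not called only for some. Genes of other lists were named where called in a described comparison, at most 4 per list by size of difference with an average log2 CPM of at least 4. The 5 nearest genes by r had the same minimum and a range of at least 2 between group means. Some values are not reported here. The members, lists and tests were chosen with earlier results of these data known. Alternatives were RLE scaling, no or a stricter filter (minimum count 30), all 25 libraries, a replicate block, fits of the groups compared alone, a log2 difference over 1, exon length of the longest transcript, DESeq2 1.42.0 and leaving out each sample. Leaving out the 3 samples with over 50 CPM of granulocyte genes was chosen after seeing the data. The paper describes its RNA-seq replicates as biological. The labels do not tie libraries to animals, so p-values and intervals measure the spread between these samples, which may be technical. Limits from counts cover counting error only.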

Additional observations from a re-analysis of the deposited data

Results flagged for a closer look

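Among 20 groups of 4 samples examined for a sample far from the others, 2 stood out, and chance alone flags about 1 in 20. *Serpinb9b* was 1.49 CPM in AL 7R- replicate 1 against 0, 0.145 and 0.251 in the other replicates, a gap of 0.831 of the range at a level of few counts. *Serpinb6b* was 199 CPM in AL 7R- replicate 3 against 181, 182 and 182, a gap of 0.926 of a narrow range.

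The difference of ILC1s over NK cells was tested between bone marrow and liver, and *Serpinb9* (0.99 on the log2 scale) and *Serpinb9b* (3.73) differed, both less reduced in BM iILC1s than in AL 7R+ ILC1s. In the same test *Gzma* (-1.69), *Gzmb* (-1.99) and *Gzmc* (-4.69) differed in the opposite direction. The marrow arm includes BM iILC1 replicate 2, whose 9 granulocyte genes summed to 1487 CPM. Without it *Serpinb9* gave 0.95 (adjusted p = 1.94e-04) and *Serpinb9b* 4.32 (adjusted p = 1.32e-04). The *Serpinb9b* call was lost with DESeq2 (adjusted p = 0.113) and without BM iILC1 replicate 1 (0.0653) or 3 (0.0725) or AL NK replicate 2 (0.06).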

How the results depend on the processing

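The difference of each serpin among the 8 groups was past the threshold under all 31 settings run, with a highest adjusted p of 2.67e-05, and no called difference changed direction, while 17 uncalled values took the other sign. Same-numbered samples did not deviate together (highest correlation 0.0393 over 69 pairs). The fit with the replicate number as a block changed no call of a member and gave 5.08e-21 for *Serpinb9* among the 8 groups, 6.59e-13 for *Serpinb9b*, 4.06e-06 for *Serpinb6a*, 4.72e-18 for *Serpinb6b* and 6.75e-14 for *Serpinb1a*. RLE scaling, the stricter filter and all 25 libraries changed no member's call either. With a log2 difference over 1 also required, members called became 1 of 3 in AL 7R- against AL 7R+ ILC1s, 2 of 4 in FL against AL NK cells and in BM iILC1s against BM NK cells, 0 of 1 in BM against AL NK cells, 1 of 2 in SG against AL 7R- ILC1s and 1 of 2 in the marrow against liver test. They also became 3 of 4 in AL 7R+ ILC1s against AL NK cells, FL against AL 7R- and LPL against BM iILC1s, 2 of 3 in BM iILC1s against AL 7R+ and 4 of 5 in LPL against AL 7R+. Without a filter, or with those groups alone, 2 members were called in BM against AL NK cells, and DESeq2 called 1 in the marrow against liver test. Over 24 fits leaving out 1 sample, the members called ranged from 3 to 5 in AL 7R- ILC1s against AL NK cells, 2 to 3 in AL 7R- against AL 7R+, 1 to 3 in BM iILC1s against AL 7R+, 3 to 4 in FL against AL NK, 2 to 3 in SG against AL 7R-, 0 to 1 in BM against AL NK and 1 to 2 in the marrow against liver test, and stayed at 4, 4, 4, 5, 4 and 1 in AL 7R+ against AL NK, BM iILC1s against BM NK, FL against AL 7R-, LPL against AL 7R+, LPL against BM iILC1s and SG against AL NK. Under DESeq2 and without a filter *Serpinb1a* was also called in AL 7R- ILC1s against AL NK cells and in SG against AL 7R-. Beyond these alternatives' own construction the cause was not tested. Length set by the longest transcript moved the level per kilobase of *Serpinb6a* in 8 groups and of *Serpinb1a* in 2, and enters no test of a single gene. AL NK cells and SG G1-ILCs had 2 samples each, which limits their precision.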
